A study of Mus musculus with 96 samples.

Results

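Viewpoint 148.9 Mb is the closest upstream anchor to an engineered 4.33 Mb deletion in band 4E2 of mouse chromosome 4, and its contacts were compared between the deleted 129S5 chromosome (Df) and the undeleted 129S5 chromosome (+129). The rule took the 4 libraries labelled with this viewpoint and the 129S5 allele, 4 of the 96 libraries of the series. Df came from mouse embryonic fibroblast (MEF) lines 129S5E71 and 129S5E98, of genotype Df/+DBl6, and +129 from lines 129S5E117 and 129S5E118, of genotype +129/+Bl6. In both genotypes the second copy of chromosome 4 is an intact C57BL/6J chromosome, named +DBl6 in Df cells and +Bl6 in control cells. The labels give one origin for all lines, embryos of chimeric Df/Dp males (129S5SvEvBrd) crossed to C57BL/6J, dissected at 13.5 days and used at passage 4. The study's methods also call the controls F1 crosses. The Df chromosome is constitutive and engineered, and each library is 1 MEF line, so n = 2 lines per group throughout. The 4 libraries of the C57Bl6 allele at the same viewpoint, made from the same cells, serve as an intact comparison.

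PE-4Cseq cross-links chromatin, cuts it with HindIII, ligates ends that lie close together and reads the fragments joined to 1 chosen fragment, the viewpoint. Contact frequency on a chromosome falls with the genomic distance between 2 loci, and a deletion brings its flanks closer along the fibre. The question here is how the contact map of an anchor changes when the sequence downstream of it is removed, and where the newly near DNA is met. The region corresponds to human 1p36, a segment recurrently lost in developmental disease and in tumours. In a cell population, more cells with a contact and a more frequent contact per cell cannot be told apart.

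The anchor lies in Ctnnbip1, the gene of an inhibitor of beta-catenin and TCF interaction (chr4:148892345-148940546, mm9). The annealing parts of both primers are shown because they fix where distance is counted from and how the alleles were told apart. They were found in the mm9 sequence, and capitals mark the HindIII site.
HindIII-side primer, minus strand, chr4:148921717-148921736: tagaggttccctgaAAGCTT
DpnII-side primer, plus strand, chr4:148921755-148921777: cctgtgcatatatcatacaaaac
The HindIII-side primer ends on the site at chr4:148921717-148921722 and reads away from the fragment chr4:148921723-148923360. The DpnII-side primer ends 1 base before the strain polymorphism at chr4:148921778. The fragment with the most reads, chr4:148895712-148921722, which the label's rule names, is therefore the neighbour across the primer's own site. A product that was never cut and one that was cut and rejoined there cannot be told apart. It took 79.5% and 79.6% of chromosome 4 reads in Df E71 and Df E98, but 38.7% and 68.7% in +129 E117 and +129 E118. Reads on this fragment and within 20 kb of it, the viewpoint zone, were therefore left out of every total. Distances were counted from the HindIII site at the primer.

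The 4 libraries held 636214 to 2194791 chromosome 4 reads, of which 142633 (Df E71), 309300 (Df E98), 307749 (+129 E117) and 428927 (+129 E118) lay outside the zone. The fragments behind these reads, called captured when they held at least 1 read, numbered 1386, 3200, 3122 and 3620. Df E71 was thus the shallowest library by both measures. The 10 fragments with most reads took 19.5% to 34.9% of the reads outside the zone, so a level can rest on few ligation products. No library was a copy of another. Beyond 2 Mb from the anchor, the Df replicates shared 28.3% of the fragments of the smaller library and the +129 replicates 23.1%, with log read correlations over shared fragments of 0.228 and 0.158. The 129S5 and C57Bl6 libraries of one line shared more, 35% to 57.9%, and there reads correlated negatively (r from -0.487 to -0.124). A fragment rich in reads on one allele thus tended to be poor on the other, and the part of reads given to the wrong allele in this was not tested.

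The label of the deleted chromosome was checked first. An interval found from the 3 other viewpoints outside the deletion, chr4:150083826-154411694, left 1.16 Mb of retained sequence between the anchor and the deletion start. It wholly contains 47 protein-coding genes, starts between Slc45a1 (a sugar transporter) and Errfi1 (a feedback inhibitor of EGF receptor signalling), and ends inside Plch2 (a phospholipase C). Inside it the Df libraries held 149 and 714 reads, or 0.104% (95% Wilson interval 0.089% to 0.123%) and 0.231% (0.215% to 0.248%) of reads outside the zone. The +129 libraries held 3.18% (3.12% to 3.24%) and 2.42% (2.38% to 2.47%). These intervals cover counting error only, since PCR reads without molecular identifiers are not independent molecules. The intact +DBl6 chromosome of the same cells held 3.33% and 1.93%. The loss was thus seen on the labelled allele alone, with the group means at 0.168% ± 0.0894 in Df and 2.80% ± 0.533 in +129 (SD, n = 2). An exact two-sided permutation test of 2 against 2 libraries cannot give less than p = 0.333, which was its value here and wherever the groups below did not overlap.

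The reads left in the interval matter for fragment counts. They equalled 3.01% of the +DBl6 reads there in line E71 and 10.7% in line E98, and 68.5% and 82.6% of them lay on fragments that +DBl6 had also captured. By fragments with at least 1 read the interval was far from empty in Df, with 81 and 211 of its 1108 fragments. With at least 5 reads only 6 and 32 remained, against 127 and 166 in +129. A single read is therefore weak evidence of a contact in these libraries.

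**Figure D1:**
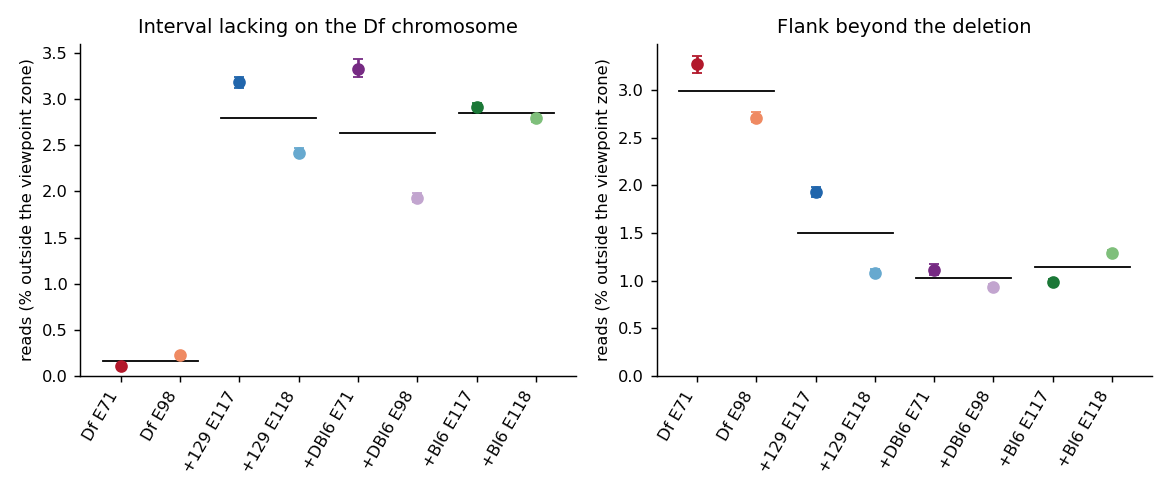
Share of reads outside the viewpoint zone (percent, vertical axis) in the deleted interval (left) and on the flank beyond it (right) for each of the 8 libraries of viewpoint 148.9. Error bars are 95% Wilson intervals and black lines group means of 2 libraries. Both Df libraries lie below 0.25% in the interval and above 2.7% on the flank, where the other 6 libraries lie at 1.93% or less.

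Most contacts of the anchor were close to it on every chromosome. Within 1 Mb upstream lay 36.7% and 38.2% of reads outside the zone in Df and 34.1% and 39% in +129, and the groups overlapped. Between the anchor and the deletion start lay 44.6% and 44% in Df and 37.2% and 40.8% in +129. Here both Df libraries were above both +129 libraries, 44.3% ± 0.427 against 39.0% ± 2.57 (SD, n = 2). The intact chromosome of the same cells showed this as well, with 45.7% and 45.2% in +DBl6 and 37.6% and 41.1% in +Bl6. Within each line the 129S5 share was 0.972 to 0.992 times the C57Bl6 share, so both alleles of a line held nearly the same share. The MEF line and an effect of the genotype on both alleles cannot be told apart here.

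Far upstream the libraries went the other way. Beyond 40 Mb upstream lay 5.9% and 5.24% of Df reads and 9.76% and 7.59% of +129 reads. The intact alleles again moved alongside, with 5.11% and 5.71% in +DBl6 and 11.3% and 7.05% in +Bl6. Between 10 and 40 Mb upstream the shares were 7.51% and 7.66% in Df and 11% and 7.53% in +129, which overlapped. Between 1 and 10 Mb they were 1.94% and 2.02% against 2.92% and 1.57%. Outside the deleted interval and the flank, no zone separated Df from +129 by reads without a separation of the same direction on the C57Bl6 alleles.

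The retained neighbourhood was rich in contacts over a few genes. The downstream 40 kb window with the highest mean over the 4 libraries lay in Clstn1, which encodes a synaptic membrane protein, with its centre 58.3 kb from the site. It held 150112.5 and 116947.9 RPM (reads scaled to a common total of reads outside the zone, as in all levels below) in Df and 55392.5 and 75810.1 in +129. The window over Pik3cd, a catalytic subunit of phosphoinositide 3-kinase, held 95335.6 and 95253.8 in Df and 89962.9 and 100669.8 in +129, so these groups overlapped. Clstn1 was thus the highest window in both Df libraries and Pik3cd in both +129 libraries. Upstream, the window with the highest mean lay over Nmnat1 and Lzic and ran into the zone left out. It held 62019.3 and 62266.4 in Df and 47217.1 and 56771.9 in +129, so both Df libraries were above both controls. The window over Ube4b, a ubiquitin chain elongation factor, held 58787.2 and 51739.4 against 37862.0 and 63558.6, which overlapped.

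Reads per kb declined with distance on both sides, more steeply in the libraries of Df cells. The fall-off exponent is the slope of a straight line through log10 reads per kb in 8 distance bins from 20 kb to 1 Mb. Upstream it was -0.971 and -1.08 in Df and -0.869 and -0.934 in +129, a difference of -0.126 between means. Downstream it was -0.413 and -0.637 in Df and -0.175 and -0.383 in +129, a difference of -0.246. On both sides the groups did not overlap by this measure (exact permutation p = 0.333, the smallest possible). The C57Bl6 alleles gave the same order, with upstream exponents of -1.03 and -1.07 in +DBl6 and -0.876 and -0.929 in +Bl6, and downstream exponents of -1.18 and -1.14 against -0.925 and -0.986. A steeper fall-off was therefore not particular to the deleted chromosome. Upstream, the order did not hold from 20 kb to 0.5 Mb, where the exponents were -0.235 and -0.546 in Df and -0.365 and -0.354 in +129. Counted by captured fragments, the difference between means shrank to -0.0501 upstream and -0.0318 downstream. The slope at 100 kb of a smoothing spline through single fragments, a measure after the study's methods, was -1.61 and -1.26 in Df and -0.973 and -0.527 in +129 upstream. Downstream it was above 0 in all 4 libraries and the groups overlapped, at 1.42 and 0.666 in Df and 1.97 and 1.06 in +129.

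The flat downstream exponent of the 129S5 chromosomes rested on 1 fragment. The fragment chr4:148942787-148951778, 25.6 kb from the site and in no protein-coding gene, held 53 and 389 reads in Df E71 and Df E98, and 387 in +129 E118. The C57Bl6 libraries of the same lines held 5548, 8832, 8995 and 13901. The 129S5 level was thus 0.955% to 4.4% of the C57Bl6 level in every line, deleted or not. Without the first distance bin, which holds this fragment, the downstream exponents became -1.35 and -1.37 in Df and -0.972 and -1.09 in +129. The +DBl6 and +Bl6 values then were -1.3 and -1.35, and -0.982 and -1.07. Of 225 fragments within 1.2 Mb with over 1000 RPM in some library, 6 differed over 10-fold between the alleles of every line, 5 of them lower on 129S5. One of these 5 is a 78-base fragment in Ube4b, with 16 to 103 reads on 129S5 and 928 to 2734 on C57Bl6.

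**Figure D2:**
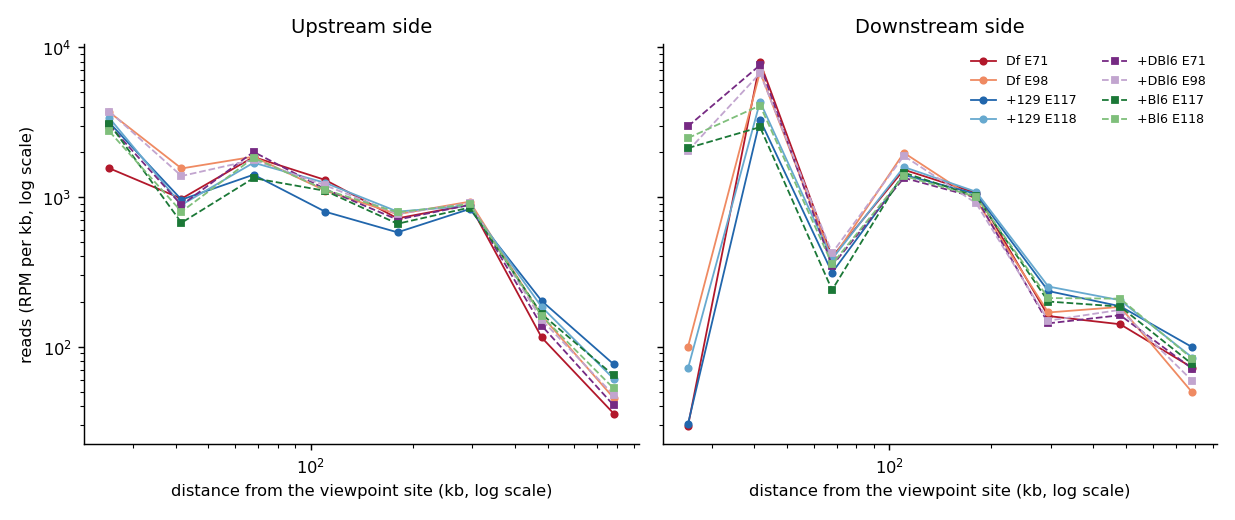
Reads per kb (RPM per kb, log scale) against distance from the viewpoint site (kb, log scale) on the upstream (left) and downstream (right) side for the 8 libraries. Circles with solid lines are 129S5 libraries and squares with dashed lines C57Bl6 libraries. The first downstream point separates all 4 129S5 libraries (29.5 to 99.7 RPM per kb) from all 4 C57Bl6 libraries (2030.8 to 2962.2), and in the last bin on each side all 4 libraries of Df cells lie below all 4 of control cells.

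Beyond the deletion lies a 1.22 Mb flank with 281 HindIII fragments, which runs from chr4:154411695 to the chromosome end at 155630120. It is 5.49 Mb from the anchor on +129 and begins 1.16 Mb away on Df. It holds 51 protein-coding genes, among them Ski (a corepressor of TGF-beta signalling), Prkcz (an atypical protein kinase C), Gnb1 (a G-protein beta subunit) and Agrn (a proteoglycan of the neuromuscular junction). Df reads on the flank were 3.27% (Wilson 3.18% to 3.36%) in E71 and 2.71% (2.66% to 2.77%) in E98. The +129 reads were 1.93% (1.88% to 1.98%) in E117 and 1.08% (1.05% to 1.12%) in E118. Both Df libraries were above both controls, at 2.99% ± 0.39 against 1.51% ± 0.598 (SD, n = 2), a ratio of 1.98 (exact permutation p = 0.333). By purification batch, the ratio was 1.69 for E71 over E117 and 2.5 for E98 over E118. It was 2.76 without +129 E117.

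The higher share was on the deleted allele and not on its homologue. The flank took 1.11% and 0.936% of +DBl6 reads and 0.989% and 1.29% of +Bl6 reads, so the C57Bl6 groups overlapped. As a ratio of the 2 alleles of one line, a quantity chosen after the values had been seen, the flank share of 129S5 over C57Bl6 was 2.93 in E71, 2.9 in E98, 1.95 in E117 and 0.841 in E118. Both deleted lines were above both control lines, and 1 of the controls was itself above 1.

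Reads were also spread over more flank fragments for the size of each library. Df captured 110 and 174 of the 281 fragments with at least 1 read, and +129 captured 92 and 120, so these counts overlapped. In relation to all captured fragments outside the zone these are 7.94% and 5.44% in Df and 2.95% and 3.31% in +129. With at least 5 reads the flank counts were 64 and 103 against 46 and 63. In Df these were 22.8% and 36.7% of flank fragments, while in the interval Df lacks 0.542% and 2.89% of fragments reached 5 reads. Both Df libraries shared 85 captured flank fragments and both +129 libraries 53. Of the 218 flank fragments captured in any of the 4 libraries, 13 (5.96%) were captured in both Df and neither +129 library, and 2 (0.917%) the other way round. Over all such fragments outside the zone and the deleted interval, these shares were 1.12% and 4.22%. By fragments with at least 1 read, the flank share of +DBl6 was also above that of +Bl6 (4.45% and 4.23% against 2.88% and 3.34%). When fragments with over 5 times as many reads on the other allele of the same cells were dropped, Df held 8.72% and 6.21% against 3.01% and 3.28% in +129, a ratio of 2.37. The C57Bl6 groups then overlapped, at 3.01% and 3.2% in +DBl6 and 2.81% and 3.59% in +Bl6. The filter also drops a +DBl6 fragment wherever Df holds over 5 times its reads. A Df excess thus lowers the filtered +DBl6 count by itself, and this overlap cannot show that the intact allele was unchanged.

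Along the flank, the higher density of Df lay in the first 0.9 Mb. From the deletion end to 0.3 Mb past it, the 129S5 libraries held 14.3 and 26.7 RPM per kb in Df and 7.65 and 8.49 in +129, a ratio of 2.55. From 0.3 to 0.6 Mb they held 55.1 and 33.4 against 23.8 and 15.3, a ratio of 2.26. From 0.6 to 0.9 Mb they held 29.7 and 24.5 against 12.4 and 8.2, a ratio of 2.62. In each of these 3 parts both Df libraries were above both controls, and the C57Bl6 groups overlapped in every one. In the last part, to the chromosome end, Df held 9.25 and 5.52 and +129 held 19.2 and 3.86, and the groups overlapped. In +129 E117, 48.5% of the reads there lay on 1 fragment, which overlaps an exon of B3galt6, a galactosyltransferase of proteoglycan synthesis.

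The highest density on Df did not lie next to the deletion end. It lay in the second part, 0.3 to 0.6 Mb on, which was also the densest of the 4 parts in both +129 libraries and in all 4 C57Bl6 libraries. The read-weighted median position on the flank was 503 and 502 kb past the deletion end in Df, and 644 and 575 kb in +129. In captured fragments per 1000 captured outside the zone, Df had 20.2 and 12.8 in the first part and +129 7.69 and 6.08. In the last part Df had 8.66 and 7.81 and +129 4.16 and 3.87, so by this count the Df libraries were above the controls in all 4 parts. By the same count +DBl6 was above +Bl6 in the first 3 parts, with 7.42 and 10.3 against 6.89 and 6.57 in the first. Unscaled, the captured fragments of Df and +129 overlapped in each part from 0.3 Mb on. In the last part they were 12 and 25 in Df and 13 and 14 in +129. The scaling divides by only 1386 captured fragments in Df E71. In the scaled count with the fragments richer on the other allele dropped, Df remained above +129 in all 4 parts. There +DBl6 was above +Bl6 from 0.6 to 0.9 Mb alone (10.8 and 10.3 against 6.67 and 9.94). In the first part +DBl6 lay below both +Bl6 libraries, with 4.63 and 6.39 against 7.04 and 6.73. It did so in the last part too, with 2.31 and 4.26 against 4.81 and 5.45. Df reads enter the filter of +DBl6, so the filtered intact comparison is not independent of Df.

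**Figure D3:**
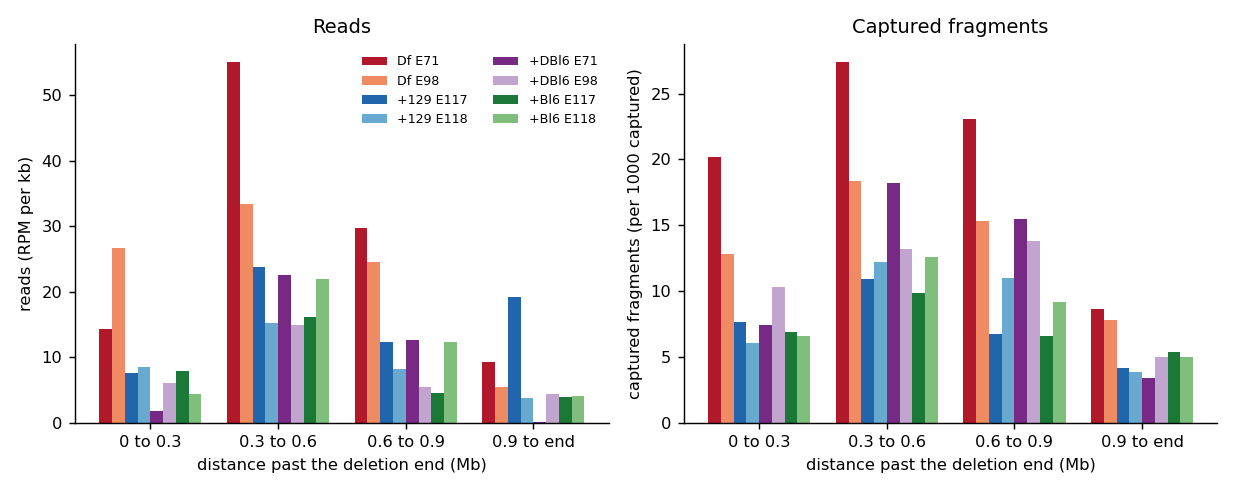
Reads (RPM per kb, left) and captured fragments (per 1000 captured outside the zone, right) in 4 parts of the flank, by distance past the deletion end (Mb), with 1 bar per library. Both Df bars stand above both +129 bars in the first 3 parts by reads and in all 4 by fragments. In the last part by reads, +129 E117 is highest with 19.2 RPM per kb.

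In windows of 40 kb the Df libraries lay above both +129 libraries in 14 of 31 flank windows (45.2%), and below both in 1. Over all windows with reads outside the deleted interval, 5.47% had Df above and 17.2% had Df below without overlap. The 14 windows fell 6, 2, 5 and 1 in the 4 parts of the flank, of 8, 7, 8 and 8 windows. On the C57Bl6 alleles, +DBl6 was above +Bl6 in 4 of 30 flank windows (13.3%) and below in 8, against 3.71% above and 16.1% below over all their windows with reads outside the interval. A window's reads mostly came from 1 fragment, whose share was 76.6% in the median over libraries and windows.

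The window at the deletion end itself, with the flank side of Plch2 and its neighbour Gm10564, had 217 and 469 RPM in Df and 9.75 and 4.66 in +129. There +DBl6 (26.9 and 95.7) was also above +Bl6 (0 and 0). The fragment over Gm10564 itself held no reads in Df and 0.795 and 0.285 RPM per kb in +129, and Gm10564 is 1 of the 4 flank genes with Df below both controls. All 3 windows nearest to the end were separated in this way, the second with 189 and 327 against 6.5 and 105 and the third with 56.1 and 595 against 45.5 and 4.66. The genes Pex10 (peroxisome biogenesis), Rer1 (retrieval to the endoplasmic reticulum) and Morn1 lie there. Their levels were low beside those farther along the flank.

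The 5 windows with the greatest difference among the 14 were spread over the flank. The first, centred 488 kb past the end over Gnb1, had 5146.1 and 3284.8 RPM in Df and 1082.1 and 809 in +129. Both +DBl6 (1778.0 and 1012.2) and +Bl6 (1567.8 and 1528.8) stayed below Df there. A 20-base fragment in this window, described below, held 59.4% of its reads in Df E71 and 33.7% in Df E98. A window 168 kb past the end, within Ski, had 989 and 1493.7 RPM in Df and 9.75 and 9.33 in +129. This was the widest relative gap of the 5, and +DBl6 had 101 and 148 RPM.

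A window 728 kb past the end over Atad3a, a mitochondrial ATPase, and Vwa1, a matrix protein, had 1065.7 and 2082.1 RPM in Df and 61.7 and 660 in +129. There +DBl6 was also above +Bl6, with 1394.1 and 281 against 65.4 and 213. The window 608 kb past the end had 1100.7 and 957 RPM in Df and 35.7 and 203 in +129. On the intact alleles it had 748 and 615 in +DBl6 and 56.5 and 813 in +Bl6. It lies over Cdk11b (a cyclin-dependent kinase), Mmp23 (a metalloprotease) and Mib2 (a ubiquitin ligase of Notch ligands). The fragment of Mmp23 itself held 0 and 0 RPM per kb in Df and 2.05 and 0 in +129. A window in Prkcz, 288 kb past the end, had 1640.6 and 1196.2 against 715 and 315.

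The window with Df below both controls was centred 928 kb past the end. Ube2j2, a ubiquitin-conjugating enzyme of the endoplasmic reticulum, and Fam132a lie in it. It had 14 and 563 RPM in Df and 3067.4 and 662 in +129. A single fragment held 96.7% of the reads in +129 E117 and 94.8% in Df E98. It is the fragment that overlaps an exon of B3galt6, and the Df lines were far apart from each other. Df was also below both controls on the fragments of the 2 genes themselves. Fam132a had 0 and 0.245 RPM per kb in Df and 7.65 and 26.7 in +129. Ube2j2 had 0 and 0.462 against 3.6 and 13. For both genes +DBl6 lay below +Bl6 as well, with 0 and 0.22 against 0.226 and 31.5 for Fam132a.

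**Figure D4:**
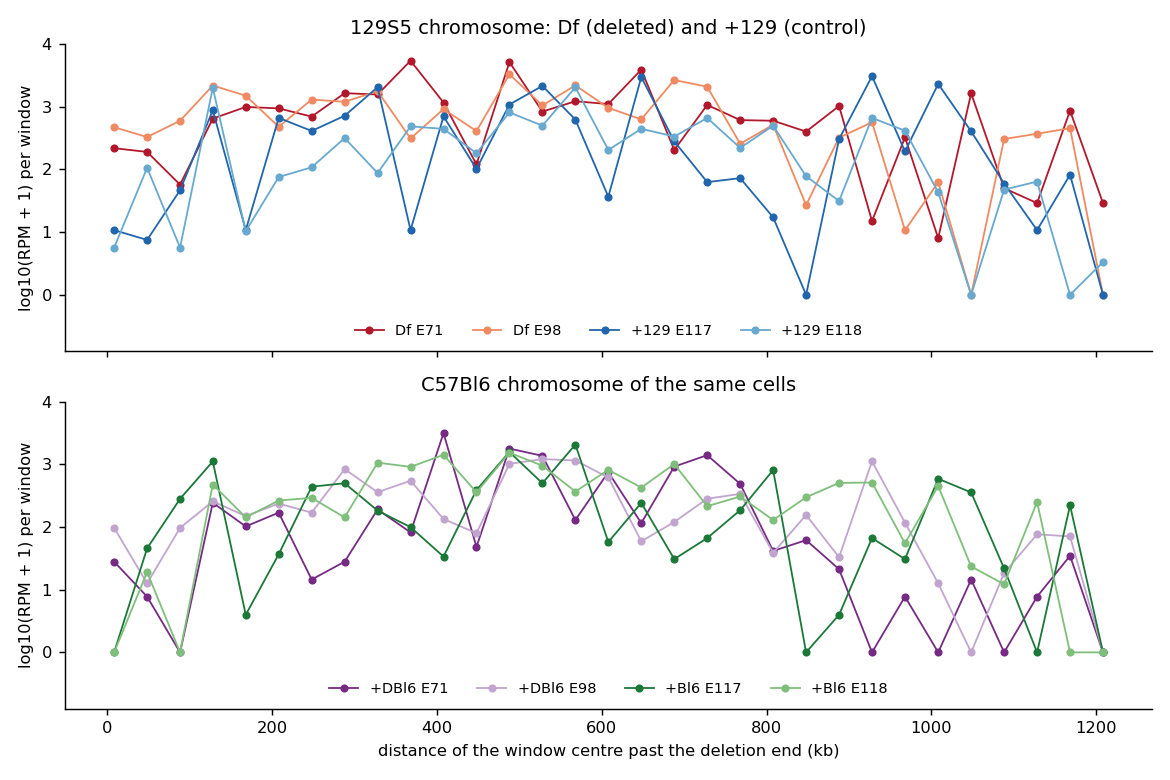
Level of each 40 kb flank window, log10(RPM + 1), against the distance of its centre past the deletion end (kb) for the 129S5 libraries (top) and the C57Bl6 libraries of the same lines (bottom). In the top panel the 2 Df lines lie above both +129 lines in 14 of 31 windows, among them the 3 nearest to the end. In the bottom panel +DBl6 lies above +Bl6 in 4.

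By gene, contact was taken as RPM per kb over the fragments that overlap the gene. Of 47 flank genes with reads, 12 had both Df libraries above both +129 libraries (25.5%) and 4 had both below (8.51%). Over all protein-coding genes of chromosome 4 with reads outside the interval, these shares were 7.33% and 19.6%. The median log2 ratio of Df over +129, with 0.1 RPM per kb added, was 0.97 on the flank and -0.69 over those genes. On the C57Bl6 alleles 2 flank genes were higher and 7 lower, where the shares over all those genes were 6.13% and 17.6%. Neighbouring genes can share a fragment, so genes are not independent of each other.

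Among 10 flank genes of a list of 15 chosen for this region, Prkcz, Gabrd and Gnb1 were higher in both Df libraries. Gnb1 had 59.8 and 41.4 RPM per kb in Df and 30.4 and 11.1 in +129, a ratio of 2.44. A 20-base intron fragment of Gnb1, described below, held 3056.8 and 1105.7 RPM in Df and 0 and 39.6 in +129. The fragments of Gnb1 span 88.9 kb, and whether the gene stays higher without that fragment was not tested. Prkcz had 34.2 and 36.1 against 27.2 and 4.83, and Gabrd, the delta subunit of the GABA-A receptor, had 31.1 and 14.1 against 0 and 10.6. Ski overlapped, with 19.2 and 43.1 in Df and 10.4 and 23.5 in +129. Farther along the flank, Dvl1, a transducer of Wnt signals, had 0 and 4.66 against 0.351 and 3.44. Agrn had 0.166 and 8.82 against 2.16 and 1.49.

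The immune receptor genes Tnfrsf4 and Tnfrsf18 were not higher on Df, at 0.674 and 0.932 against 5.62 and 0.224, and at 0 and 0 against 1.18 and 75. Isg15, an interferon-induced ubiquitin-like protein, was at 0 in all 4 libraries, where its 1 fragment had no reads. Hes5, a Notch target, lies inside the deleted interval, and its fragment had 0 and 0.532 RPM per kb in Df. Mib2, outside the list, had a wide gap, with 27 and 18.4 against 0.975 and 1.7.

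Of the listed genes on the anchor's own side, Casz1, a zinc finger transcription factor, had 48.7 and 51.5 RPM per kb in Df and 99.8 and 63.4 in +129. Rere, a nuclear receptor corepressor near the deletion start, had 45.7 and 29.3 against 72 and 53.1. Spen, a transcriptional repressor, had 2.47 and 2.84 against 4.33 and 10.8. In all 3 both Df libraries lay below the controls, and for Casz1 and Rere both +DBl6 libraries also lay below both +Bl6 libraries. Ube4b overlapped, with 984 and 894 against 682 and 1061.5.

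The 5 flank fragments with the highest lower value in the 2 Df libraries were also read one by one. In 3 of them both Df libraries lay above both controls, an outcome that the pick by Df reads favours. No matching pick was made from the +129 libraries. The ends of the 2 fragments with the wider gap are shown, because ligation joins a HindIII end to the anchor. Each end is given 5′ to 3′ from the site into the fragment, in mm9, with the HindIII site in capitals.
Gnb1 intron fragment, left end, plus strand, chr4:154914300-154914329: AAGCTTttcccataatattcAAGCTTtctt
Intergenic fragment near Isg15, left end, plus strand, chr4:155579756-155579785: AAGCTTgtagggcaggcatttattaataaa
Intergenic fragment near Isg15, right end, minus strand, chr4:155583509-155583538: AAGCTTcctggccaagtgtccaattgtcac
The Gnb1 fragment, chr4:154914306-154914325, is 20 bases long and includes the second of a pair of HindIII sites, as its printed end shows. It held 436 and 342 reads in Df, 0 and 17 in +129, 7 and 180 in +DBl6 and 0 and 500 in +Bl6. In RPM it held 3056.8 and 1105.7 in Df and 1122.4 in +Bl6 E118, so that control matched one of the Df libraries. How reads were assigned to so short a fragment is not given in the sources used here. The intergenic fragment, chr4:155579762-155583538, held 123 and 125 reads in Df, 0 and 0 in +129, 4 and 9 in +DBl6 and 0 and 0 in +Bl6. It lies 1170.0 kb past the deletion end, near the end of the chromosome. The protein-coding gene AW011738 lies between it and Isg15, and had no reads in any of the 8 libraries. At the other 3 fragments, in Prkcz, Nadk (NAD kinase) and Ski, +129 had reads of a similar size in at least 1 library.

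The flank fragment with most reads differed from library to library. In Df E71 it overlapped an exon of 2010015L04Rik, 386 kb past the deletion end, with 631 reads against 4 in Df E98. In Df E98 it lay in an intron of Ssu72, a phosphatase of RNA polymerase II, with 381 reads against 20 in Df E71 and 0 in both +129 libraries. In +129 E117 it was the B3galt6 fragment, with 913 reads. In +129 E118 it overlapped an exon of Slc35e2, with 737 reads against 43 and 151 in Df. Single fragments were thus poorly repeated between lines, and the flank difference rested on sums over many of them.

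At its shortened distance, the flank on Df was denser than +129 chromatin at equal distance. The anchor lies 1.16 to 2.38 Mb from the flank on Df, where the flank held 26.8 and 22.3 RPM per kb. On +129 the sequence 1.16 to 2.38 Mb upstream of the anchor held 8.42 and 1.93, and the sequence at that distance downstream, inside the interval, 13.6 and 10.3. The Df density was 4.74 ± 0.619 times (SD, n = 2) the mean of the first and 2.06 ± 0.269 times the mean of the second. The first ratio was 12.7 without +129 E117 and 2.92 without +129 E118. The upstream reference is thinly covered, since only 206 of its 326 fragments had reads in any of the 32 libraries of the 4 outer viewpoints, against 328 of 341 downstream and 267 of 281 on the flank. Counted per fragment with such reads, the Df ratio was 3.66 to the upstream mean and 2.53 to the downstream mean.

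The +129 flank itself, at 5.49 Mb or more, held 15.8 and 8.9 RPM per kb. On the undeleted chromosome it thus overlapped the density of nearer downstream sequence, at 1.33 and 0.746 times the downstream mean. It was already 3.06 and 1.72 times the upstream mean, so the higher Df ratio to that mean is not due to the shortened distance alone. In the first 0.3 Mb past the breakpoint Df had 14.3 and 26.7 RPM per kb and the +129 sequence at that distance downstream 25.8 and 25.2. These groups overlapped. From 0.3 to 0.6 Mb on, both Df libraries were above, with 55.1 and 33.4 in Df and 15.3 and 9.05 in +129.

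**Figure D5:**
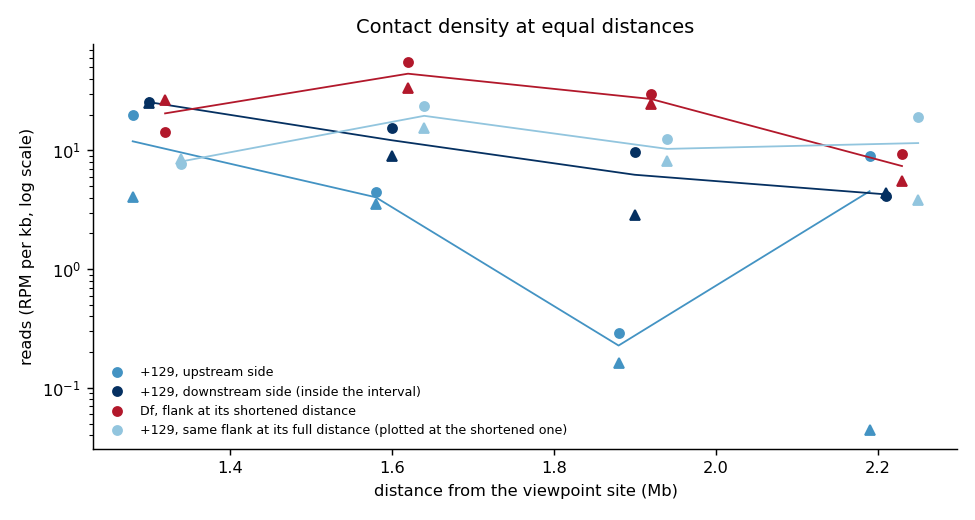
Reads per kb (RPM per kb, log scale) against distance from the viewpoint site (Mb) in 4 steps from 1.16 to 2.38 Mb. Circles are E71 or E117, triangles E98 or E118, and lines group means, drawn for Df on the flank at its shortened distance, +129 upstream, +129 downstream inside the interval, and +129 on the same flank. Df is near the downstream +129 density in the first step (14.3 and 26.7 against 25.8 and 25.2) and above it in the second (55.1 and 33.4 against 15.3 and 9.05).

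Viewpoints on the flank gave the reverse view. From viewpoint 155.5 Mb, the 250 kb on each side of the anchor fragment took 0.556% and 0.401% of Df reads and 0.181% and 0.181% of +129 reads, a ratio of 2.64. The +DBl6 and +Bl6 shares overlapped, at 0.392% and 0.384% against 0.427% and 0.31%. Per 1000 captured fragments, Df had 8.22 and 8.94 there and +129 4 and 5.02. By that count +DBl6 (7.63 and 6.72) was also above +Bl6 (5.42 and 5.87). Viewpoint 155.5 Mb lies in the last flank part, where the reads seen from the anchor overlapped between Df and +129. From viewpoint 154.9 Mb the shares were 1.41% and 1.72% in Df and 1.09% and 0.773% in +129, a ratio of 1.68. There +DBl6 (0.558% and 0.677%) was also above +Bl6 (0.428% and 0.53%) without overlap, a ratio of 1.29. At that viewpoint the libraries Df E71 and +129 E117 had correlated reads (r = 0.685 over 1329 shared distant fragments, against 0.0789 to 0.224 in the other 5 pairs). Without that pair the comparison is 1.72% in Df E98 against 0.773% in +129 E118.

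Across the chromosome, no 80 kb window separated Df from +129 after correction. In edgeR's quasi-likelihood test 0 of 594 windows of this anchor (0%) passed an adjusted p of 0.05, and at an unadjusted p under 0.05 there were 14 (2.36%) with Df above and 39 (6.57%) with Df below. DESeq2 on the same windows called 10, of which 0 were on the flank and 2 in the deleted interval. The biological coefficient of variation between replicate windows was 1.39. Even the deleted interval passed at no window, with a median log2 fold change of -3.55 over its 40 tested windows. On the flank 13 of 15 windows had a positive log2 fold change with a median of 1.63, against 255 of 594 and a median of -0.36 over all windows tested.

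The window nearest to a call was on the anchor's side over Clstn1, at chr4:148960001-149040000, with a log2 fold change of 1.2 and an edgeR adjusted p of 0.0532, or 0.387 when adjusted over the windows of this anchor alone. Its RPM was 196000 and 179000 in Df and 99500 and 120000 in +129. On the intact alleles it was 187000 and 182000 in +DBl6 and 83700 and 109000 in +Bl6. This difference too was shared by both alleles of the lines.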

How the data were processed

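The authors separated read pairs by allele at a strain polymorphism, aligned trimmed capture reads with Bowtie to ends of HindIII fragments of mm9 (3 mismatches, unique) and deposited raw read counts per fragment of chromosome 4, with no scaling. Another 16 deposited tables list regions from the authors' own comparison and were not used, nor were 64 count files of the inner viewpoints. All 48320 rows matched the HindIII sites of NCBIM37. Groups were read from the labels. The deleted interval was searched between 148 and 155 Mb from viewpoints 1, 11 and 12 and tested on simulated data. Windows of 80 kb entered with 10 or more reads in 50% of libraries or more, and edgeR 4.0.16 (TMM, Benjamini-Hochberg over viewpoints 1, 2, 11 and 12) compared them, with DESeq2 1.42.0 as an alternative. RPM was scaled to reads outside the zone. Single values were tested by exact permutation. E71 and E117 libraries were purified with one kit and E98 and E118 with another, which gave the block. Deviations within it correlated at 0.02 over 594 windows. Named windows were the 5 flank windows of 40 kb with the greatest Df excess and up to 3 with the greatest deficit, without overlap. Named fragments were the 5 with the highest lower Df value and each library's fragment with most reads. The libraries, lists and tests were chosen with earlier results of these data known.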

Additional observations from a re-analysis of the deposited data

Results flagged for a closer look

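The share of captured fragments in the deleted interval moved in opposite directions on both alleles. Df over +129 was 0.728 (5.84% and 6.59% against 7.5% and 9.59%), whereas +DBl6 over +Bl6 was 1.26 (10.6% and 10.2% against 7.37% and 9.17%). The difference between these changes was not tested.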

How the results depend on the processing

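Of 123 alternative values of 18 results, 108 kept their direction and their count within 1.5 times. The flank ratio of Df over +129 ranged from 1.55 to 2.76 when each library was left out, and fell to 0.739 with no zone left out, where the neighbour fragment (38.7% to 79.6% of reads) enters the total. It was 2.66 by fragments with at least 5 reads, and 2.02 by reads and 2.37 by captured fragments when fragments with over 5 times as many reads on the other allele of the same cells were dropped, a setting added after the data had been seen. Flank windows with Df above numbered 24 in 20 kb windows and 23 by captured fragments. The zone shares of 1 to 10 Mb (1.76 by captured fragments, Df minus +129 in percentage points), and of 10 to 40 Mb, 1 to 10 Mb and within 1 Mb upstream, changed sign when libraries were left out (ranges -3.38 to 0.0587, -0.94 to 0.417 and -1.55 to 3.37, the changed signs without +129 E117). The flank window with Df below both controls turned to 407 by captured fragments (scaled as RPM), Df minus +129, from -1576.5 by reads. Called windows numbered 10 with DESeq2, 1 with total-read scaling, 4 with 1 read as the filter, 2 with 100 reads, 2 with all 8 libraries, and 0 to 14 when a library was left out, 14 without Df E98 and 5 without +129 E118; none lay on the flank. With the replicate block no window was called (0), and 12 against 53 lay under an unadjusted p of 0.05. It changed no other call.

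With 2 lines per group no single value can pass a permutation test, whatever its size. Line, purification and depth cannot be separated from one another within a group.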
